A study of Homo sapiens with 28 samples.

Results

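In senescent lung fibroblasts, 600 regions held phosphorylated c-JUN (p-c-JUN) at a FOXF1 site and held no p-c-JUN peak after FOXF1 and FOXF2 were knocked down. They were chosen from lists of binding peaks. The p-c-JUN peaks of 2 Sen-siFOXF1/2 and 2 Sen libraries on chromosomes 1 to 22 and X were joined wherever they overlapped by 1 bp, which gave 128056 regions. A region was called lost when both Sen lists and neither Sen-siFOXF1/2 list held a peak, which took in 5163 regions (4.03% of all joined regions). Of these, 600 overlapped a FOXF1 region with a peak in both FOXF1 Sen lists and are called the lost FOXF1-bound regions, while 4563 did not. Among the 8380 p-c-JUN regions that both Sen lists held at FOXF1 sites, 870 others had a peak in 1 of the 2 knockdown lists and 6910 were kept in both. Because the p-c-JUN and FOXF1 lists of these groups chose the regions, their values are given as a description with no test. H3K27ac lists had no part in the choice.

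All libraries came from IMR-90 ER:Ras cells, a human fetal lung fibroblast line that carries an oncogenic Ras switched on by 4-hydroxytamoxifen. The mapping method was CUT&RUN, in which a nuclease tethered to an antibody releases the bound DNA. Sen-siFOXF1/2 cells were senescent cells transfected with small interfering RNA (siRNA) against FOXF1 and FOXF2. Sen-JUN-KD cells were titled as a knockdown of cJUN and JUND, while their treatment tag also named JUNB. Sen-sip300/CBP cells had siRNA against the acetyltransferases p300 and CBP and had senescent controls of their own. Sen cells were the senescent reference, and Pro cells were titled as proliferating. The labels gave every group, Pro included, 100 nM 4-hydroxytamoxifen for 6 days and the same senescent cell tag, so what set Pro apart rests on the sample titles. Each group and antibody had 2 libraries, apart from H3K27ac in Sen cells, which had libraries 1 and 2 in a first deposit and 3 and 4 in a second with the JUN knockdown. The line is derived from a single tissue source, and nothing states that replicates were separate cultures, so p-values here measure only the spread between libraries.

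c-JUN is a subunit of AP-1, a dimeric transcription factor that binds enhancers and is activated when c-JUN N-terminal kinases phosphorylate it. AP-1 acts widely at the enhancers that open during Ras-induced senescence. FOXF1 and FOXF2 are forkhead transcription factors of the lung mesenchyme, and forkhead factors often share enhancers with AP-1. H3K27ac, the acetylation of lysine on histone H3, marks active enhancers and promoters and is written mainly by p300 and CBP. In bulk cells, binding in fewer cells and weaker binding in each cell cannot be told apart.

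The lists held 133 to 93443 peaks, and the number of mapped reads behind them is unknown. The p-c-JUN lists were of like length after knockdown, with 75005 and 86110 peaks in Sen-siFOXF1/2 cells, against 70177 and 93443 in Sen cells. FOXF1 lists were almost empty after knockdown of their own target, with 186 and 133 peaks in Sen-siFOXF1/2 cells, against 13603 and 40537 in Sen cells. Those 2 short lists also carried another peak name prefix and had a narrowest peak of 76 bp, while the narrowest peak of the other lists was 182 to 245 bp long. The H3K27ac lists had 84673 and 71746 peaks in Sen-siFOXF1/2 cells, 84864 and 60862 in Sen libraries 1 and 2, and 48859 and 26694 in Sen libraries 3 and 4.

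In Sen cells these 600 regions carried weak p-c-JUN and FOXF1 of a strength like that at the kept regions. Each peak has a fold enrichment at its summit and a −log10 q, both the authors' values, which rank peaks within 1 list. In p-c-JUN Sen library 1 the lost FOXF1-bound regions had a median fold of 4.76 and lay at the median percentile 29.2 of that list, against 8.70 and percentile 82.3 for the kept regions. In p-c-JUN Sen library 2 the medians were 5.42 and percentile 46.0 for the lost FOXF1-bound regions, against 9.39 and percentile 86.7 for the kept ones. Of the 600 lost sites, 127 (21.2%) ranked above the middle of the first p-c-JUN list and 260 (43.3%) above that of the second. In the top 10% of the first and the second list ranked 3 and 5 of the 600. The median summit was 11 and 13 fragments high in the lost FOXF1-bound regions, against 29 and 30 in the kept regions, and the lowest summits of the knockdown lists were 5 and 4 fragments. The median width was 457 bp, against 753 bp for the kept regions, which join peaks of 4 lists rather than 2, and 459 bp for all joined regions.

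FOXF1 strength did not follow that order. In FOXF1 Sen library 1 the median fold was 6.02 at the lost FOXF1-bound regions and 5.85 at the kept regions, and the median percentiles were 62.9 and 59.2. In FOXF1 Sen library 2 the median folds were 7.34 at the lost and 7.00 at the kept regions, with percentiles of 85.8 and 83.1. The summit heights of FOXF1 were 11 and 19 fragments at the lost regions and 11 and 18 at the kept ones. The lost and the kept sites thus had almost the same FOXF1 strength. Weak p-c-JUN was not particular to FOXF1 sites, since the regions lost without FOXF1 had median p-c-JUN folds of 4.64 and 5.09 and percentiles of 23.8 and 37.3, and a rule that asks for a missing peak favours weak ones.

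**Figure D1:**
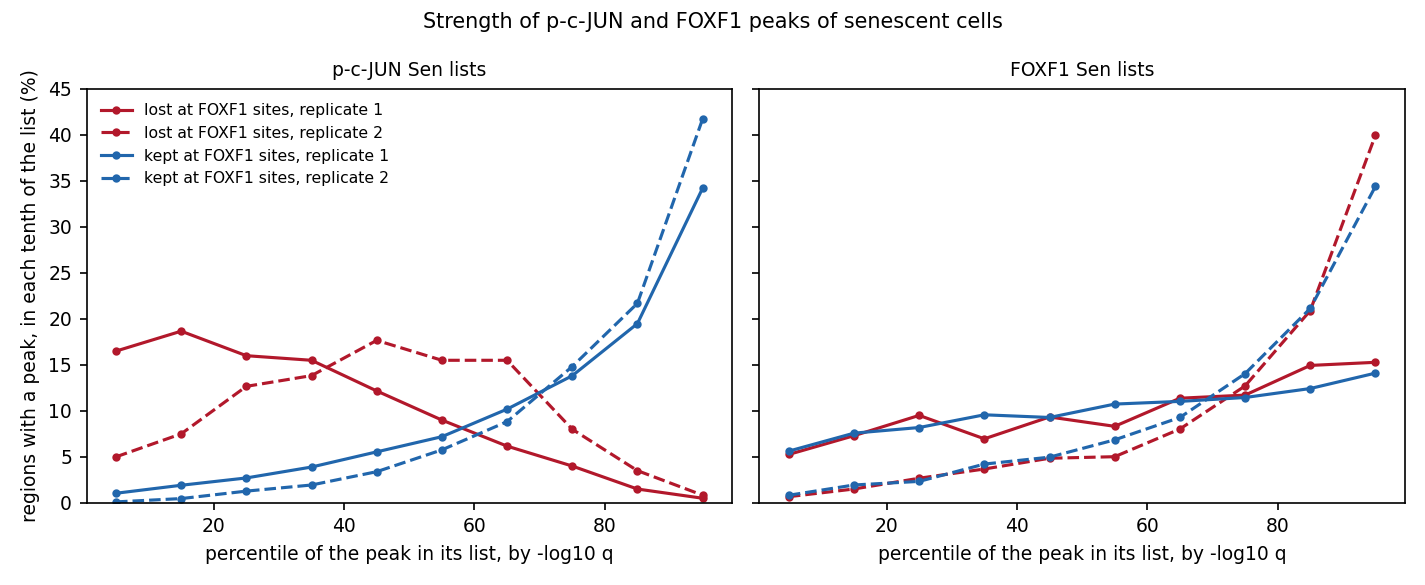
Share of regions with a peak (vertical axis, percent) in each 10% step of its list by −log10 q (horizontal axis, percentile), for p-c-JUN Sen lists on the left and FOXF1 Sen lists on the right, with red for lost FOXF1-bound regions, blue for kept ones, solid lines for library 1 and dashed for library 2. In p-c-JUN the red lines lie to the left (median percentiles 29.2 and 46.0, against 82.3 and 86.7), while in FOXF1 both colours run together.

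Some regions at the edge of the choice rested on weak peaks. The weakest lost FOXF1-bound region in a Sen list lay at chromosome 9, 97933958 to 97934188 (hg19), with −log10 q of 2.29 and 1.3. Just outside the choice, the region at chromosome 2, 174056441 to 174056815, had −log10 q of 3.76 and 6.43 in Sen cells and a single knockdown peak of 1.32. Such borderline exclusions were few, since the single knockdown peaks of the 870 regions held by 1 knockdown list had a median −log10 q of 4.85, and 27 of them (3.1%) were under 2. The count of 600 grew to 1398 without p-c-JUN Sen library 1, 1296 without the second knockdown library and 1697 without FOXF1 Sen library 1, and was 347 when all peaks needed a −log10 q of 5.

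Overlap of the 2 factors was part of the choice, so their spacing is given only as a description. The p-c-JUN summit lay a median of 91 and 90.5 bp from the nearest FOXF1 summit in libraries 1 and 2 at the lost FOXF1-bound regions, against 78 and 80 bp at the kept regions. Summits were within 100 bp in 54.2% and 54.3% of the lost regions and in 57.9% and 56.6% of the kept regions. The p-c-JUN summits of the 2 Sen libraries were themselves 78 bp apart at the lost regions, against 45 bp at the kept regions, so the spacing at the lost regions was close to the scatter of the summit. When a FOXF1 summit of both lists had to lie within 200 bp of a p-c-JUN summit, 493 regions met the rule.

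**Figure D2:**
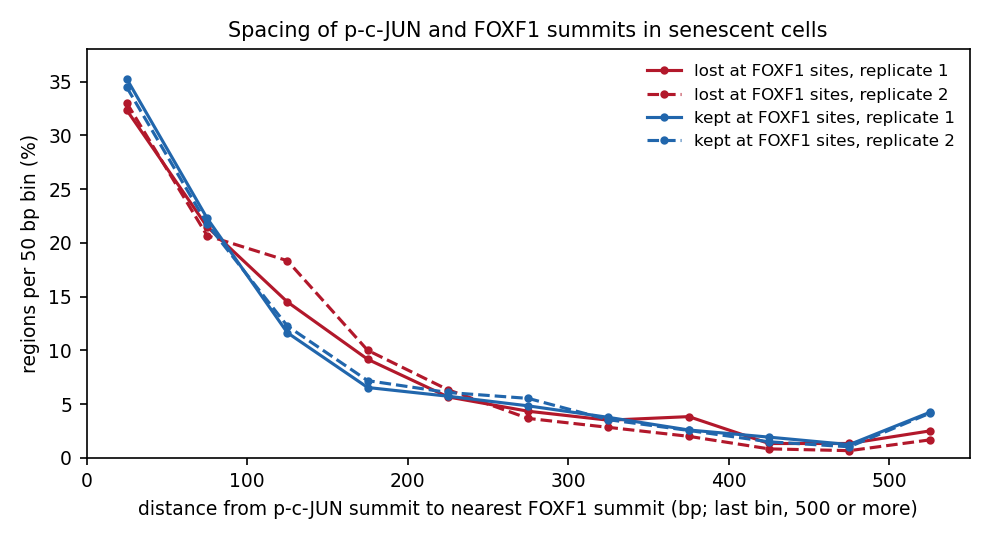
Distance from the p-c-JUN summit to the nearest FOXF1 summit in Sen cells (horizontal axis, bp, in bins of 50 bp) against the share of regions (vertical axis, percent), with red for lost FOXF1-bound regions, blue for kept ones, solid for library 1 and dashed for library 2. The first bin is the highest in all 4 lines, and medians were 91 and 90.5 bp for the lost and 78 and 80 bp for the kept regions.

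FOXF1 peaks were nearly absent from these sites in the knockdown lists, as from all regions. In Sen-siFOXF1/2 cells 1 of the 600 regions held a FOXF1 peak, the same region in both libraries (0.167%), while 0.767% and 0.738% of the kept regions and 0.0797% and 0.0672% of all joined regions held one. FOXF1 was also nearly absent after JUN knockdown, with a peak at 0.33% and 1.00% of the lost FOXF1-bound regions, against 1.75% and 2.43% of the kept regions and 0.216% and 0.522% of all joined regions. The Sen-JUN-KD lists of FOXF1 held 378 and 883 peaks in all, so these low shares come with short lists genome-wide, and the part of list length in them was not tested. The FOXF1 Sen libraries that chose the regions came from the other deposit.

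In Pro cells most of these sites had no p-c-JUN peak and no FOXF1 peak, as did most joined regions. A p-c-JUN peak was present at 7.83% and 14.3% of the lost FOXF1-bound regions in the 2 Pro libraries, against 69.9% and 78.4% of the kept regions and 3.62% and 7.82% of the regions lost without FOXF1. In all, 501 of the 600 (83.5%) held no p-c-JUN peak in either Pro list, against 73.2% of all joined regions. Across all joined regions, 23.3% had a p-c-JUN peak in both Sen and neither Pro list, and nothing is read from the comparison because the same Sen lists chose the regions. FOXF1 was present in Pro libraries at 13.0% and 34.7% of the lost FOXF1-bound regions and at 24.5% and 53.0% of the kept ones. Of the 600 regions, 77 held FOXF1 in both Pro lists, 132 in 1 and 391 in neither. The 391 are 65.2%, against 92.3% of all joined regions with FOXF1 in neither Pro list, most of which were not FOXF1 sites in Sen cells either. FOXF1 in both Sen and neither Pro list was found at 3.91% of all joined regions, and again nothing is read from this, since the Sen lists were part of the choice. The Pro lists were shorter than the Sen lists, with 24808 and 32136 p-c-JUN peaks and 3441 and 11061 FOXF1 peaks.

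H3K27ac, which had no part in the choice, was less frequent at the lost FOXF1-bound regions after FOXF1/2 knockdown and was about as frequent at the kept ones. An H3K27ac peak overlapped 49.7% and 45.5% of the 600 regions in the 2 Sen-siFOXF1/2 libraries, against 82.5% and 65.5% in Sen libraries 1 and 2. Both knockdown libraries lay below both of these Sen libraries. The mean was 47.6% ± 2.95 in Sen-siFOXF1/2 cells and 74.0% ± 12.0 in Sen cells (SD, n = 2 each), a difference of −26.4 percentage points (SE 8.75; exact two-sided permutation test, p = 0.33, the smallest that 2 libraries against 2 can give). At the kept regions the shares were 90.4% and 83.6% in Sen-siFOXF1/2 cells and 92.7% and 77.3% in Sen cells, which overlap, and the difference was 2.07 points (SE 8.42, exact permutation p = 1).

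Set against the kept regions within each library, the deficit of the lost FOXF1-bound regions was steady between replicates. Their H3K27ac share minus that of the kept regions was −40.8 and −38.1 points in the 2 Sen-siFOXF1/2 libraries, and −10.2 and −11.8 points in Sen libraries 1 and 2. The change in this gap was −28.5 points (SE 1.52; exact permutation p = 0.33, again the smallest possible). Regions held by 1 knockdown list lay in between, with H3K27ac at 69.3% and 62.1% in Sen-siFOXF1/2 cells and 86.3% and 69.3% in Sen cells. Their difference was −12.1 points (SE 9.24, exact permutation p = 0.667).

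The Sen libraries of the second deposit had H3K27ac at fewer regions of every class. At the lost FOXF1-bound regions the shares were 41.5% and 19.7% in Sen libraries 3 and 4, below the Sen-siFOXF1/2 libraries. With all 4 Sen libraries the knockdown difference was −4.71 points (exact permutation p = 0.867). The gap to the kept regions was −23.6 and −22.5 points in Sen libraries 3 and 4, wider than in Sen libraries 1 and 2 and narrower than after knockdown. With all 4 Sen libraries the change in the gap was −22.4 points (exact permutation p = 0.0667, the smallest that 4 libraries against 2 can give).

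**Figure D3:**
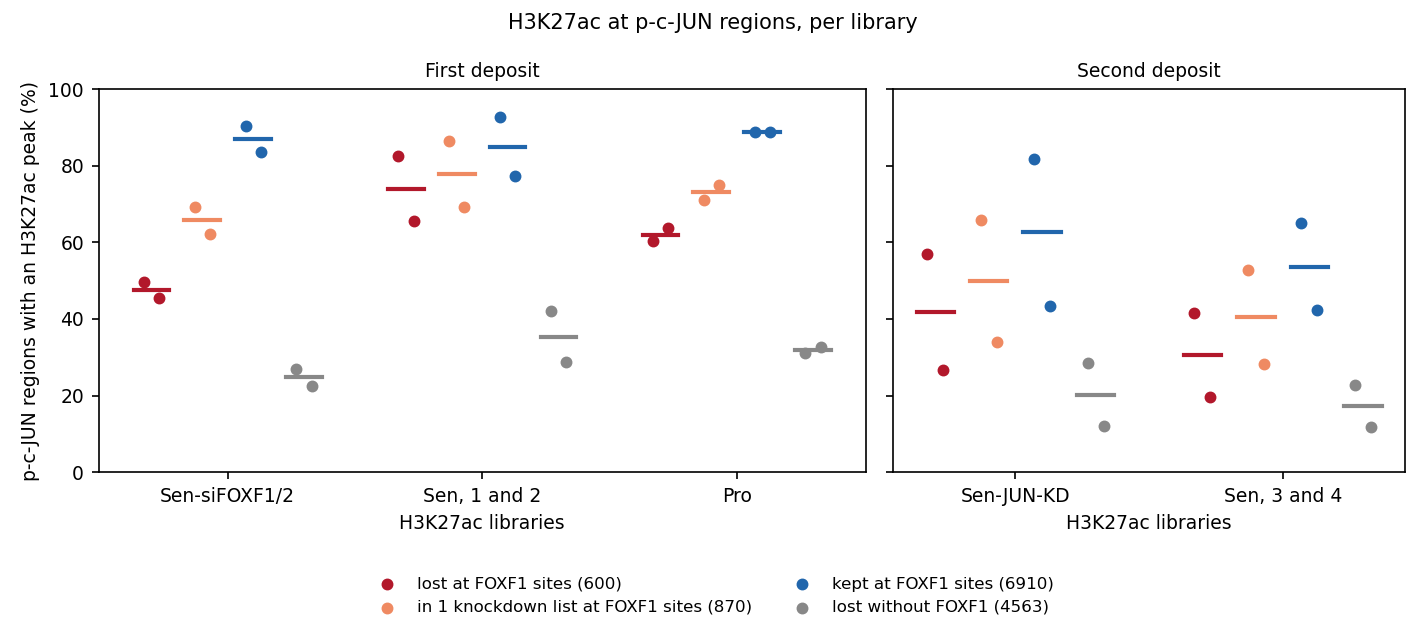
Share of p-c-JUN regions with an H3K27ac peak (vertical axis, percent) in each library (points) with the mean of the 2 (lines), for regions lost at FOXF1 sites, held by 1 knockdown list, kept, and lost without FOXF1, in the first deposit (left) and the second (right). The lost FOXF1-bound regions (red) stand at 49.7% and 45.5% in Sen-siFOXF1/2 cells, against 82.5% and 65.5% in Sen libraries 1 and 2, while the kept regions (blue) overlap between these groups.

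Region by region, 100 of the 600 (16.7%) lost H3K27ac, meaning a peak in both of Sen libraries 1 and 2 and in neither knockdown library. That count was 161 without Sen library 2, 152 without the first knockdown library, 36 of 347 regions at a −log10 q of 5 and 8 when all 4 Sen libraries had to hold the peak. The same call was made at 2.05% of all joined p-c-JUN regions, at 98 of the kept regions (1.42%) and at 62 of those held by 1 knockdown list (7.13%). The opposite call was made at 5 of the 600 (0.833%), against 3.89% of all regions. Of the regions with no H3K27ac in either Sen library, which alone could get it, this was 5 of 88 (5.68%). The background for that share was 7.31% of all joined regions without H3K27ac in either Sen library. Of the 376 lost FOXF1-bound regions with H3K27ac in both Sen libraries, 100 had it in neither knockdown list, 87 in 1 and 189 in both. The 100 were 26.6% of these acetylated regions, against a background of 7.47% for all p-c-JUN regions with H3K27ac in both Sen libraries. Of the 88 with no H3K27ac peak in Sen libraries 1 and 2, 75 had none after knockdown.

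Regions that lost p-c-JUN away from FOXF1 lost H3K27ac at a like rate once they were acetylated. Of the 1125 such regions with H3K27ac in both Sen libraries, 307 (27.3%) had none in either knockdown list, against 26.6% at FOXF1 sites. The 4563 regions were less often acetylated to begin with, at 27.0% and 22.6% in Sen-siFOXF1/2 cells and 42.1% and 28.7% in Sen cells, a difference of −10.6 points (SE 7.04, exact permutation p = 0.33). Counted over all regions of a class, the change at the lost FOXF1-bound regions differed from this one by −15.8 points (SE 1.82, exact permutation p = 0.33). Some of the 4563 held FOXF1 in a single list, with a peak at 24.1% in FOXF1 Sen library 2 and at 1.84% in library 1.

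Weak acetylation was most often called lost in every class, and a call that asks for missing peaks favours weak ones. FOXF1-bound regions acetylated in both Sen libraries were split into 3 bins of equal size by the lower of their H3K27ac −log10 q values, at 4.41 and 6.66. In the weakest bin 64 of 160 lost FOXF1-bound regions (40.0%) had no H3K27ac peak left, against 66 of 1671 kept regions (3.95%). In the middle bin the counts were 33 of 134 (24.6%) and 25 of 1758 (1.42%). In the strongest bin they were 3 of 82 (3.66%) and 7 of 1822 (0.384%). In each bin the lost FOXF1-bound regions exceeded the kept ones. The regions lost without FOXF1 stood at 39.1%, 17.1% and 7.57% by the same limits, so they were close to the lost FOXF1-bound regions in the weakest bin, below them in the middle bin and above them in the strongest, where 3 and 14 regions carry the shares.

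**Figure D4:**
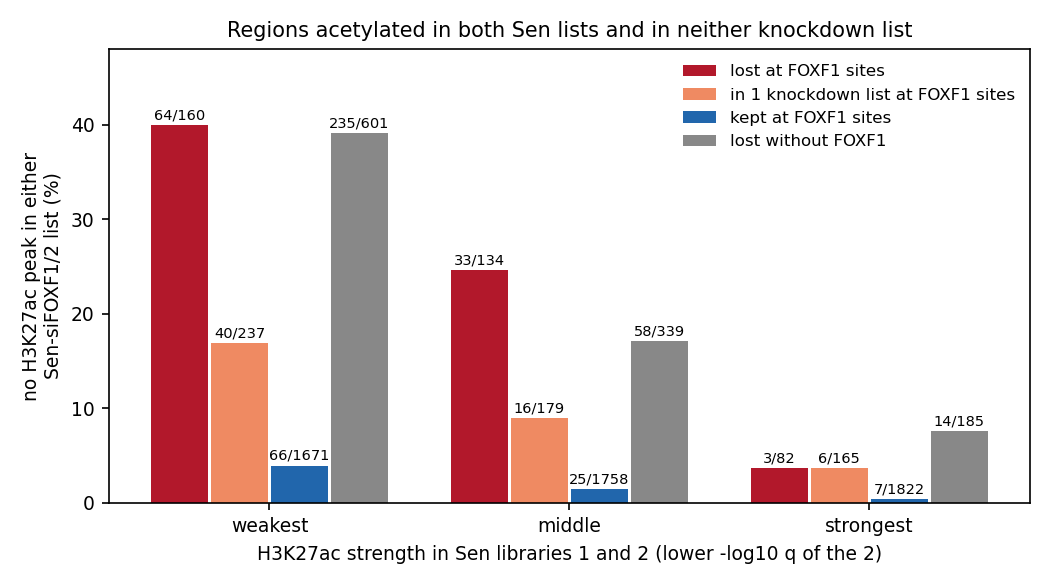
Share of regions with an H3K27ac peak in both Sen libraries 1 and 2 that had none in either Sen-siFOXF1/2 library (vertical axis, percent), by strength of H3K27ac in Sen cells (horizontal axis, 3 bins split at −log10 q of 4.41 and 6.66), with counts above the bars. The lost FOXF1-bound regions (red) stand at 40.0%, 24.6% and 3.66% and the kept regions (blue) at 3.95%, 1.42% and 0.384%.

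Kept regions with weak p-c-JUN in Sen cells rarely lost H3K27ac. In a comparison chosen after seeing the data, 325 kept regions had p-c-JUN no stronger than the median of the lost FOXF1-bound regions. These weak kept regions held H3K27ac at 87.1% and 79.4% in Sen-siFOXF1/2 cells and at 88.0% and 73.8% in Sen cells, and 2 of 231 acetylated ones (0.866%) lost the peak. The change in the gap between the lost FOXF1-bound and these weak kept regions was −28.7 points (exact permutation p = 0.33). Among the lost FOXF1-bound regions, the share that lost H3K27ac was 27.0%, 20.5% and 32.6% from the weakest to the strongest p-c-JUN bin.

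The difference was also seen away from remaining p-c-JUN. The median distance from a lost FOXF1-bound region to the nearest p-c-JUN peak of either knockdown list was 4.57 kb, and 41 regions had one within 500 bp. For the 278 regions more than 5 kb from any such peak, H3K27ac was present at 44.6% and 40.3% in Sen-siFOXF1/2 cells and at 82.0% and 64.0% in Sen cells, a difference of −30.6 points (SE 9.25, exact permutation p = 0.33), and 55 of 169 acetylated regions lost it. This split was chosen after seeing the data.

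Relative to Pro cells, H3K27ac in Sen libraries 1 and 2 was more frequent at the lost FOXF1-bound regions, while at the kept ones the groups overlapped. Shares at the lost FOXF1-bound regions were 82.5% and 65.5% in Sen cells and 60.3% and 63.7% in Pro cells, a difference of 12.0 points (SE 8.66, exact permutation p = 0.33) in which both Sen libraries exceeded both Pro libraries. At the kept regions they were 92.7% and 77.3% in Sen cells and 88.9% and 88.7% in Pro cells, which overlap (−3.82 points, SE 7.71, exact permutation p = 1). The gap to the kept regions was 15.8 points smaller in Sen libraries 1 and 2 than in Pro cells (SE 1.94, exact permutation p = 0.33). It was −28.6 and −25.0 points in the Pro libraries and −10.2 and −11.8 points in Sen libraries 1 and 2. In Sen libraries 3 and 4 it was −23.6 and −22.5 points, nearer to the Pro values. With all 4 Sen libraries the sign of the first difference turned, to −9.71 points (exact permutation p = 0.733). An H3K27ac peak in both Sen and neither Pro library was found at 70 of the 600 regions (11.7%), against 2.89% of all joined regions and 155 of the kept ones (2.24%). It was found at 67 of the regions held by 1 knockdown list (7.70%) and at 5.96% of those lost without FOXF1. Only regions without H3K27ac in either Pro list could get this call. They were 184 of the 600, 523 of the kept regions and 170 of those held by 1 knockdown list. Such regions numbered 2811 among those lost without FOXF1 and 66770 among all joined regions. The raw shares are thus not alike in base, and nothing is read from their order. The reverse, a peak in both Pro and neither Sen library, held at 14 of the 600 (2.33%), against 4.72% of all joined regions. This comparison and the knockdown comparison share Sen libraries 1 and 2.

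After JUN knockdown, the H3K27ac shares at the lost FOXF1-bound regions overlapped those of the Sen libraries of the same deposit. Shares were 57.0% and 26.7% in Sen-JUN-KD cells and 41.5% and 19.7% in Sen libraries 3 and 4, which overlap, and the difference was 11.3 points (SE 18.7, exact permutation p = 0.667). It was −3.92 points without the first JUN knockdown library and 0.33 points without Sen library 4. A peak was lost at 9 regions (1.5%, against 1.31% of all joined regions) and found only after JUN knockdown at 39 (6.50%, against 3.01%). Of the 99 with H3K27ac in both Sen libraries 3 and 4, 9.09% lost it, against 11.2% of all such joined regions. A peak only after JUN knockdown was also found at 5.86% of regions held by 1 siFOXF1/2 list and 5.56% of kept regions. The share was 2.45% at the regions lost without FOXF1. Only regions without H3K27ac in Sen libraries 3 and 4 could get this call. The classes differed in how many such regions they had, so these shares are not alike in base and nothing is read from their order. The kept regions stood at 81.7% and 43.4% in Sen-JUN-KD cells and 65.1% and 42.2% in Sen cells.

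The p300/CBP experiment had few H3K27ac peaks at the 600 regions in either group, and its lists were short, with 4186 and 1549 peaks in Sen-sip300/CBP cells and 8234 and 2046 in their controls. Shares were 1.33% and 0.667% in Sen-sip300/CBP cells and 7.17% and 0.667% in their controls, a difference of −2.92 points (SE 3.27, exact permutation p = 1). Without the first control library it was 0.33 points. Of the 600 regions, 0 had H3K27ac in both control lists, so none could be called lost (0.258% of all joined regions were), and 1 showed the reverse (background 0.119%).

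Those of the 600 that lost H3K27ac and those with it in both knockdown lists had unlike values in the Pro libraries and in Sen libraries 3 and 4, given here as a description. The 100 that lost it had H3K27ac in 43.0% and 52.0% of cases in the 2 Pro libraries, while the 189 with H3K27ac in both knockdown lists had it in 91.0% and 92.6%. In Sen libraries 3 and 4 the shares were 24.0% and 13.0% for the 100 and 73.5% and 39.2% for the 189. The p-c-JUN shares in Pro libraries were 5.00% and 5.00% for the 100 and 12.7% and 21.7% for the 189. FOXF1 strength in Sen cells was alike, with median folds of 6.23 and 7.42 in the 100 and 6.38 and 7.41 in the 189. The median H3K27ac folds were 4.02 and 3.80 in the 100 and 4.46 and 3.99 in the 189.

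Single regions show these patterns. The 10 regions with the strongest p-c-JUN (P1 to P10) and the 10 with the strongest FOXF1 (F1 to F10), ranked by the worse of their 2 −log10 q ranks, are 19 regions, since P5 is also F10. All coordinates are hg19 and all values are the authors' folds at the summit. P2, at chromosome 9, 124186515 to 124187008, had p-c-JUN folds of 13.6 and 15.9 and FOXF1 folds of 3.74 and 6.23 in Sen cells. It had no H3K27ac peak in Sen-siFOXF1/2 cells or in Pro cells, while its folds were 6.62 and 6.24 in Sen libraries 1 and 2 and 4.92 and 4.82 in libraries 3 and 4. P2 is thus a site with strong p-c-JUN whose acetylation was seen in all 4 Sen lists.

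P6, at chromosome X, 96531385 to 96531912, had the same pattern, with p-c-JUN folds of 10.2 and 14.0 and FOXF1 folds of 7.67 and 6.79 in Sen cells. Its H3K27ac folds were 6.47, 4.09 and 4.92 in Sen libraries 1 to 3, with no peak in library 4, in Sen-siFOXF1/2 cells or in Pro cells. P5, at chromosome X, 15924480 to 15924753, was in the top 10 for both factors, with p-c-JUN folds of 10.6 and 11.5 and FOXF1 folds of 13.7 and 16.6 in Sen cells. It held H3K27ac at folds of 4.57 and 4.50 in Sen libraries 1 and 2 and in no other H3K27ac list. P7, at chromosome 15, 91344500 to 91344955, likewise had H3K27ac in Sen libraries 1 and 2 alone, at folds of 4.08 and 3.77. P1, at chromosome 1, 232404367 to 232405135, had p-c-JUN folds of 9.64 and 8.26 and a single H3K27ac peak, of fold 2.19 in Sen library 1.

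The sites with the strongest FOXF1 were picked without regard to p-c-JUN strength. F1, at chromosome 5, 147751954 to 147752831, had FOXF1 folds of 16.7 and 19.0 and p-c-JUN folds of 5.96 and 5.89 in Sen cells. Its H3K27ac was present in 1 of 2 knockdown libraries, at a fold of 4.58, against 5.44 and 5.77 in Sen libraries 1 and 2, and in both Pro libraries. F4, at chromosome 5, 51957711 to 51958237, had FOXF1 folds of 15.8 and 18.6 and also had H3K27ac in 1 knockdown library. F5, at chromosome 8, 19961009 to 19961672, had FOXF1 folds of 15.2 and 14.9 in Sen cells, and its H3K27ac peak was missing in both knockdown libraries and present in every Sen, Pro and JUN knockdown list apart from the p300 controls. F9, at chromosome 1, 56363760 to 56364185, had FOXF1 folds of 13.4 and 19.6 and H3K27ac in the second knockdown library. Of the strongest p-c-JUN sites, 4 of the 7 acetylated in both Sen libraries lost H3K27ac (P2, P5, P6 and P7), and of the strongest FOXF1 sites 3 of 10 did (F5, F8 and F10). These counts share a region and were not tested against each other. P4, F3, F6 and F7 held H3K27ac in both Sen-siFOXF1/2 libraries, in both Pro libraries and in Sen libraries 1 and 2.

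A single region went against the rest. P8, at chromosome 14, 88237575 to 88237810, was the region with FOXF1 peaks after FOXF1/2 knockdown, at folds of 15.0 and 12.0. It also had p-c-JUN folds of 14.3 and 13.4 in Pro cells, H3K27ac folds of 19.9 and 18.1 in Sen-JUN-KD cells and a FOXF1 fold of 18.5 in the first Sen-JUN-KD library, while it held no H3K27ac peak in any Sen, Sen-siFOXF1/2 or Pro library. Its high folds with all 3 antibodies set it apart from the other named regions. A region outside the named ones, at chromosome 2, 133038166 to 133038395, was like it in part. In the 2 Sen-JUN-KD libraries that region had FOXF1 folds of 6.69 and 7.99 and H3K27ac folds of 5.93 and 10.1. It held no H3K27ac peak in any Sen, Sen-siFOXF1/2 or Pro library.

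**Figure D5:**
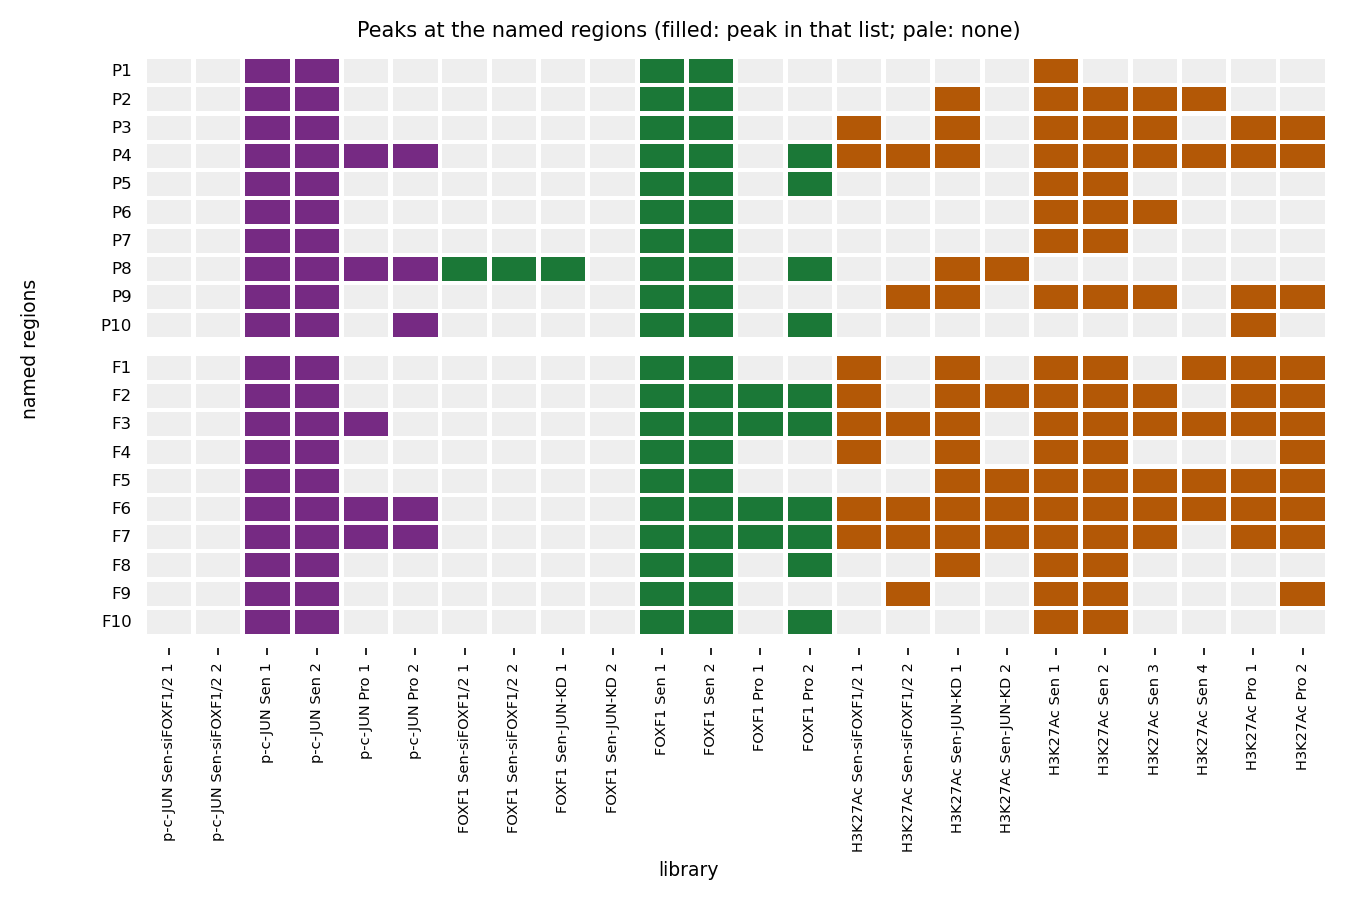
Peaks (filled squares; pale, none) at the 10 regions with the strongest p-c-JUN (P1 to P10) and the 10 with the strongest FOXF1 (F1 to F10; F10 is P5), one row per region and one column per library, with purple for p-c-JUN, green for FOXF1 and orange for H3K27ac. P2, P5, P6 and P7 hold H3K27ac in Sen libraries 1 and 2 and in neither Sen-siFOXF1/2 nor Pro libraries, and P8 is the row with FOXF1 after knockdown.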

How the data were processed

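CUT&RUN peak lists of 28 libraries (6 for p-c-JUN, 8 for FOXF1 and 14 for H3K27ac) in build hg19 were used, each called per library. The submitters' processing notes name MACS2 3.0.0, Bowtie2 2.3.4.1, deepTools 3.1.1 and SAMtools 1.9; parameters, a control library and the use of the yeast spike-in are not given in the sources used here. Per peak, the authors' caller gave a score for display, the summit's fold over background, a −log10 p and a −log10 q. The lowest −log10 q was 1.3 in the p-c-JUN lists. Fold and q were used to rank and describe peaks within a list, and the score was not used.

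Peaks off chromosomes 1 to 22 and X were left out (475 of 1123812, 0.0423%). Overlaps needed 1 bp, and a region held H3K27ac where it overlapped a peak. Summit height was solved from the deposited fold and −log10 p and came out whole within 0.0005 for 100% of p-c-JUN peaks with −log10 p under 60. Depth is otherwise unknown, so shares carry no counting interval. Shares of regions were compared over libraries by exact two-sided permutation (6 arrangements for 2 against 2) in Python 3.11.15 with NumPy 2.4.6 and SciPy 1.17.1. The code was tested on simulated lists. Members, lists and tests were chosen with earlier results of these data known. Regions were named by the rank rule given with them. Gene names, promoter sequences, motif letters and a check of cell type markers were planned, but the gene table at hand was of another build and was not used here, so regions are given by hg19 coordinates alone. Alternatives were a −log10 q of 5, an overlap of 50% of the shorter interval, equal list lengths, FOXF1 summits within 200 bp, each library left out, a replicate block and all 4 H3K27ac Sen libraries. Of the comparisons, 5 were added after seeing the data: weak kept regions, regions lost without FOXF1, regions held by 1 knockdown list, and regions split by their distance to knockdown peaks or by their H3K27ac peak. The last is not reported, since that peak selected the regions by a Sen library.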

Additional observations from a re-analysis of the deposited data

How the results depend on the processing

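With a −log10 q of at least 5 for every peak, 347 regions met the rule, 36 of them lost H3K27ac after FOXF1/2 knockdown, and FOXF1 after JUN knockdown was at 0.144% of them. Leaving out 1 library at a time gave 673 to 1697 regions, and 109 to 161 that lost H3K27ac, since fewer lists then had to meet the rule. Requiring all 4 H3K27ac Sen libraries left 8 that lost it. For the H3K27ac share, leaving out 1 library at a time gave −34.9 to −17.9 points for Sen-siFOXF1/2 minus Sen, −29.8 to −27.2 for that change relative to the kept regions, 3.50 to 20.5 for Sen minus Pro, −3.92 to 26.4 for Sen-JUN-KD minus Sen and −6.17 to 0.33 for Sen-sip300/CBP minus its control. The last 2 ranges include a change of sign, as does Sen minus Pro with all 4 Sen libraries (−9.71); the cause was not tested. Lists of equal length gave −31.4 points for the knockdown difference, with H3K27ac at 36.8% and 39.3% in Sen-siFOXF1/2 cells and 73.5% and 65.5% in Sen cells. At a −log10 q of 5 it was −21.9, Sen minus Pro was 3.75 and Sen-JUN-KD minus Sen was 4.90, and with all 4 Sen libraries the knockdown difference was −4.71.

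The labels reuse replicate numbers in every group and state no pairing. Over the joined regions, the difference between replicates correlated at 0.0521 between Sen and Sen-siFOXF1/2 and −0.00097 between Sen and Pro. It correlated at 0.0370 between the p300/CBP groups. Low correlations of this kind cannot show whether libraries of equal number came from the same culture, so pairing is unknown. With the replicate block the differences were as without it (−26.4 for Sen-siFOXF1/2 minus Sen, −28.5 relative to the kept regions, 12.0 for Sen minus Pro, 11.3 for JUN knockdown and −2.92 for p300/CBP), with an exact permutation p of 0.5, the smallest the block allows, and of 1 for p300/CBP. With 2 libraries a group, no such test reaches 0.05. The number of mapped reads is unknown, and a missing peak does not show that binding was absent.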

Other observations

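The lost FOXF1-bound regions were scattered singly. Within 50 kb of each other, 574 stood alone and the others formed 13 pairs, and the median distance to the nearest other lost FOXF1-bound region was 1080 kb. The median distance to the nearest kept FOXF1-bound region was 58.9 kb, against 60.9 kb between kept regions. Over all chromosomes, 600 of the 8380 FOXF1-bound p-c-JUN regions of Sen cells were lost. The share was highest on chromosome 7 (46 of 433, 10.6%) and chromosome 15 (27 of 261, 10.3%). It was lowest on chromosomes 18 (10 of 218, 4.59%) and 16 (8 of 174, 4.60%). These extremes were picked from all chromosomes and were not tested. On chromosome X, 6 of 69 were lost (8.70%).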
